A study of Mus musculus with 6 samples.

Results

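The genes described are Ext1, Ext2, Extl1, Extl2, Extl3 and Glce, which encode the enzymes that build the heparan sulfate chain and the epimerase that reshapes its uronic acids. They were chosen by name, through the RefSeq accession that each probe set carries in its identifier. All 6 genes were measured, each by 1 probe set, among 908 named genes and 1246 probe sets in the table. The probe sets are NM_010162.2_psr1_at for Ext1, NM_010163.2_psr1_at for Ext2, NM_019578.1_psr1_at for Extl1, NM_021388.3_psr1_at for Extl2, NM_018788.2_psr1_s_at for Extl3 and NM_033320.4_psr1_at for Glce. Many named genes of the table encode glycan enzymes, lectins, cytokines and growth factors. Shares and ranks over all probe sets thus describe this table and not all mouse genes. RNA came from MLE-15, a cultured mouse lung epithelial line that carries SV40 large T antigen. There were 3 arrays of cells stimulated with PMA (phorbol myristate acetate, also called TPA), a direct activator of protein kinase C, and 3 control arrays of unstimulated cells. The 10 nM dose and the 24 h exposure come from the study's design text and not from the sample labels. That text asks whether sialyl- and sulfotransferases and mucins are present and induced by PMA.

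Heparan sulfate is a linear sulfated polysaccharide carried by proteoglycans of the cell surface and basement membrane, where it binds growth factors, chemokines and matrix proteins. Synthesis starts on a short sugar linker attached to the core protein. EXTL3 adds the first N-acetylglucosamine that commits the chain to heparan sulfate, and a complex of EXT1 and EXT2 then lengthens it by adding glucuronic acid and N-acetylglucosamine in turn. EXTL2 can cap a linker that carries a phosphate and so stop the chain, and human EXTL1 has elongating activity in vitro. GLCE, the glucuronyl epimerase, converts glucuronic to iduronic acid after the chain has been N-sulfated, which opens sites for further sulfation. In airway and alveolar epithelium, heparan sulfate is a main component of the glycocalyx and of the underlying basement membrane.

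Because the study asked about induction by a phorbol ester, the promoters of the genes were read for the AP-1 site also known as the TPA response element. RefSeq promoter windows of mouse assembly GRCm38.p6, running from 250 bases before to 50 bases after an annotated transcript start, were matched by symbol for 4 of the 6 genes. Ext2, Extl1 and Glce had 1 window each and Extl2 had 2. Ext1 and Extl3 were not matched. The 3 windows shown belong to a gene higher in the number 1 arrays by 0.63 log2 units (Ext2), one higher by 0.38 (Extl2, the first of its windows) and one with no difference that passed the test (Glce), as described further on. Each is printed 5′ to 3′ in the direction of transcription, and capitals mark GC box letters, GGGCGG, on either strand.
Ext2 (chr2:93822519-93822818, - strand): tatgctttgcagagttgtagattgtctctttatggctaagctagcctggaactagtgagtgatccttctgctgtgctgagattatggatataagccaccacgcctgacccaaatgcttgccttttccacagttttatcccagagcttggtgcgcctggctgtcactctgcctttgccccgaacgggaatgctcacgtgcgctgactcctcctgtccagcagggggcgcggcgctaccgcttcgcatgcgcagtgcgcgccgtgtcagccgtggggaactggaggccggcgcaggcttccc
Extl2 (chr3:116007199-116007498, + strand): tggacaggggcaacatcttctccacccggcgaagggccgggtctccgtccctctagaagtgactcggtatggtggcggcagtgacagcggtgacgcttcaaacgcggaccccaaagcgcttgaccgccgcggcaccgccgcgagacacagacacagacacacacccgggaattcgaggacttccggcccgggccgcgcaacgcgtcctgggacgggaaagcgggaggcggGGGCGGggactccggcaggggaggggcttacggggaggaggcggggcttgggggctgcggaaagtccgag
Glce (chr9:62122560-62122859, - strand): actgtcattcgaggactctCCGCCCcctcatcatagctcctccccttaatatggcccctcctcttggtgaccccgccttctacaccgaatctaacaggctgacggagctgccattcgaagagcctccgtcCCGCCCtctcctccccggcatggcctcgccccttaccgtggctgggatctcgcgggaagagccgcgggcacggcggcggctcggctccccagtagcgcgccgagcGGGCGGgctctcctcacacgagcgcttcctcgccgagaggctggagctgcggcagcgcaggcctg
The letters TGANTCA, on either strand, were found in 0 of the 5 windows of the 4 genes, and 7.81% of the 32851 mouse promoter windows of this length hold them. GC box letters occurred 3 times in the Glce window, once in the first Extl2 window, and not in those of Ext2 and Extl1 or in the second window of Extl2. They occur in 35.7% of all windows. The GC content was 58.0% for Ext2, 69.3% and 53.3% for the first and second Extl2 windows, 55.3% for Extl1 and 68.0% for Glce, against a median of 52.7% over all windows. These counts describe letters within these windows only.

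**Figure D1:**
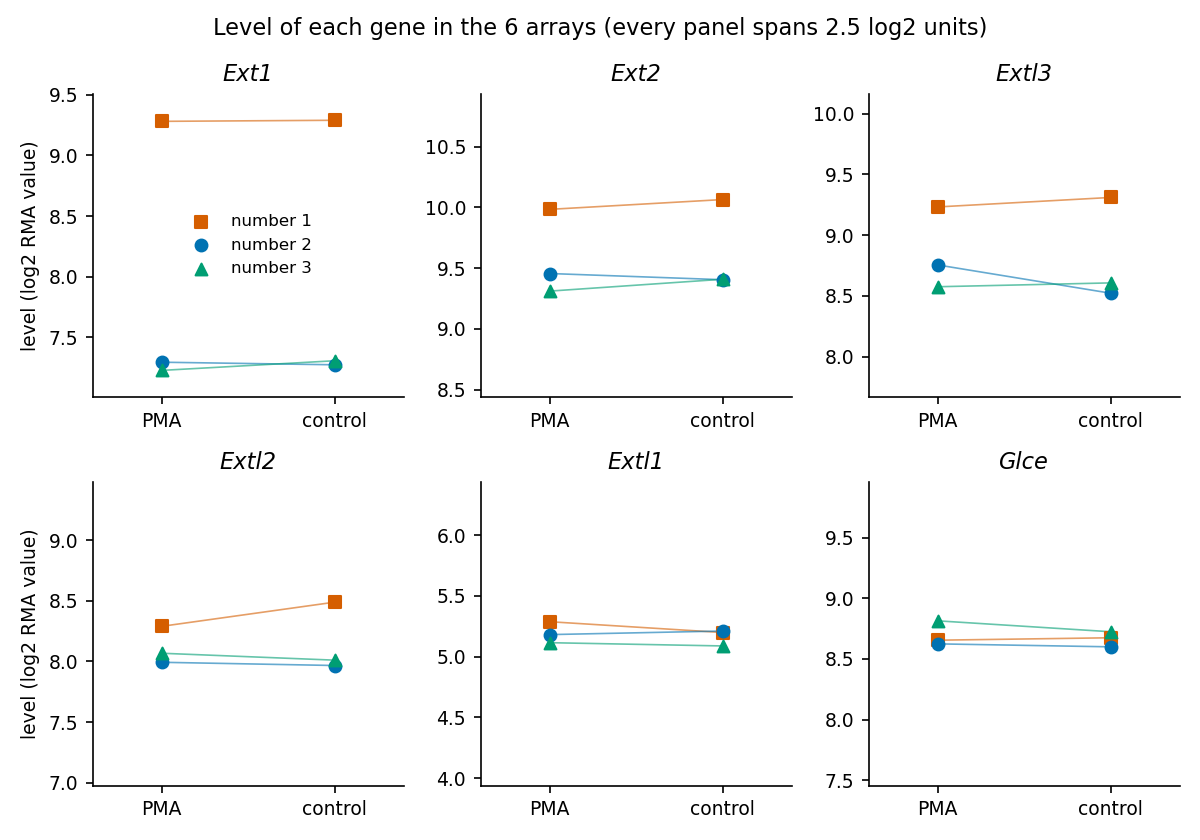
Level of each gene (vertical axis, log2 RMA value) in PMA and control arrays, with 1 point per array and a line joining arrays of the same replicate number. The number 1 squares stand above the other 4 arrays for Ext1, Ext2, Extl3 and Extl2, most widely for Ext1, while the lines between PMA and control run close to level.

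The differences between PMA and control cells in the chain-building enzymes and the epimerase were smaller than the spread between arrays. None of the 6 genes passed the test, 0 had an unadjusted p under 0.05, and their differences ran from -0.042 to 0.041 log2 units. Levels are deposited RMA values on the log2 scale, where 1 unit is a doubling of signal, and a probe set's level is compared with itself across arrays and not with that of another gene. The test was limma's moderated test, with Benjamini-Hochberg adjustment over all 1246 probe sets and a threshold of 0.05. In this comparison 0% of all probe sets were called, with 4 at an unadjusted p under 0.05. In bulk RNA, fewer cells that express a gene and less RNA per cell cannot be told apart.

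Ext1, which encodes a subunit of the polymerase complex, read 9.28, 7.30 and 7.23 in PMA arrays 1, 2 and 3, against 9.29, 7.28 and 7.31 in control arrays 1, 2 and 3. In both groups array 1 is high and the other 2 are low, so the groups overlap throughout. The mean was 7.94 ± 1.16 with PMA and 7.96 ± 1.15 in control (SD, n = 3 each), a difference of -0.022 log2 units (SE 0.81, limma adjusted p = 0.999). Within replicate numbers 1, 2 and 3 the Ext1 difference was -0.0088, 0.021 and -0.079.

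Ext2, which encodes the partner subunit needed for full polymerase activity, read 9.98, 9.46 and 9.31 with PMA and 10.06, 9.41 and 9.41 in control. Array 1 was again the highest of each group, and the 2 groups overlapped. The Ext2 difference was -0.042 (SE 0.26), and the pairs gave -0.081, 0.051 and -0.098.

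Extl3, the chain initiator, read 9.23, 8.75 and 8.58 in PMA arrays and 9.31, 8.52 and 8.61 in control arrays. PMA array 2 lay above both control arrays 2 and 3, which gave that pair a difference of 0.23, while pairs 1 and 3 gave -0.078 and -0.032. The mean difference for Extl3 was 0.041 (SE 0.28). Its probe set carries the suffix s, which marks probes that can bind several transcripts.

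Extl2, the transferase that can end chain growth, read 8.29, 7.99 and 8.07 with PMA, against 8.49, 7.97 and 8.01 in control. PMA array 1 was lower than control array 1 by 0.20 log2 units, and the other pairs differed by 0.027 and 0.057 the other way. The mean difference for Extl2 was -0.038 (SE 0.17). With both number 1 arrays left out it was 0.042, so its sign rests on that pair.

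Extl1, whose human counterpart lengthens the chain in vitro, read 5.29, 5.18 and 5.11 in PMA arrays and 5.20, 5.21 and 5.09 in control arrays. Its values lay below the median of each of the 6 arrays, and no probe set could be called above background, so a change in a dim signal may be understated. The difference was 0.029 (SE 0.074), and pairs 1, 2 and 3 gave 0.089, -0.030 and 0.027.

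Glce, the epimerase, read 8.65, 8.62 and 8.81 with PMA and 8.67, 8.60 and 8.72 in control. Here array 3 was the highest of each group, unlike in the other 5 genes. The Glce difference was 0.031 (SE 0.078), with pair values of -0.020, 0.024 and 0.090.

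Across the group, the mean with PMA was above that of control for 3 genes and below it for 3, and the median difference of 0.0032 stood beside 0.0033 over all probe sets. In 0 of the 6 genes did the 3 pairs share a sign, and 23.1% of all probe sets had 3 pairs of one sign. Pairs 2 and 3 are matched by label only, as described with the processing. A fit with the replicate number as a block, which removes the distance of the number 1 arrays, gave narrower intervals around the same differences. In it the 95% interval of the PMA difference ran from -0.17 to 0.13 for Ext1, from -0.20 to 0.11 for Ext2 and from -0.14 to 0.22 for Extl3. It ran from -0.21 to 0.13 for Extl2, from -0.12 to 0.18 for Extl1 and from -0.12 to 0.18 for Glce. Each of the 6 lay within 0.25 log2 units of 0. The blocked fit called 0 of the 6, and 0 had an unadjusted p under 0.05. It called 0% of all probe sets, with 42 at an unadjusted p under 0.05. Without the block the interval for Ext1 was far wider, from -2.05 to 2.00, and those of the other 5 genes lay within 1 log2 unit of 0. Separate cultures are not named for the replicates, so these errors cover the spread between arrays, which may be technical.

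**Figure D2:**
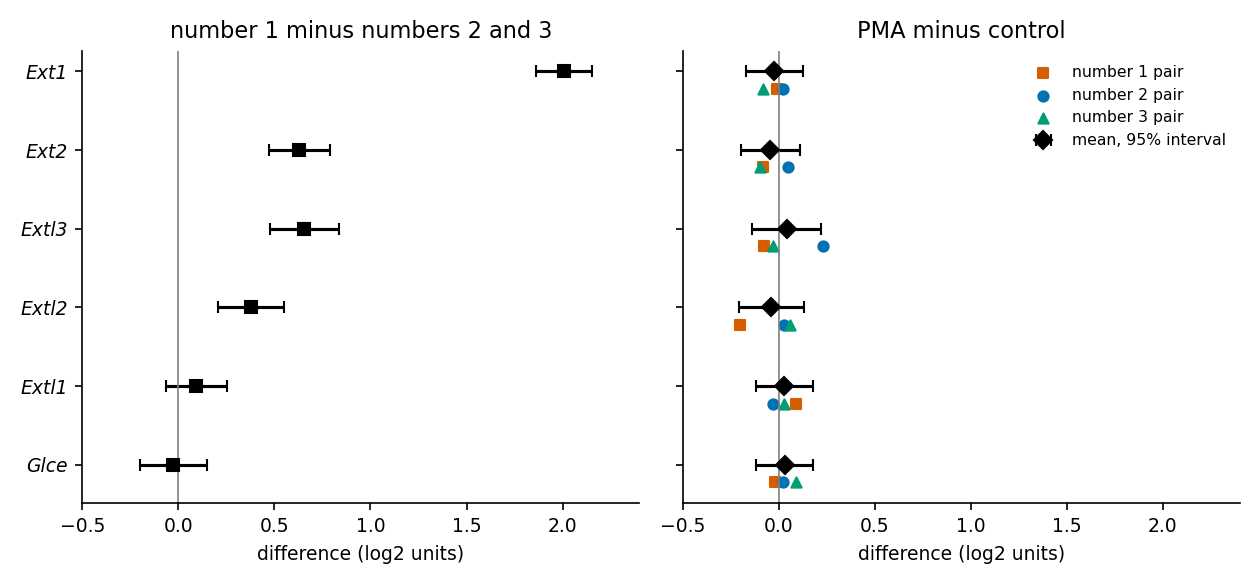
Differences (horizontal axis, log2 units) for each gene between number 1 and numbers 2 and 3 (left, limma mean with 95% interval) and between PMA and control (right, mean with the 95% interval of the fit with the replicate number as a block, and the 3 pairs as coloured points). The left intervals of Ext1, Ext2, Extl3 and Extl2 lie above 0, and every right interval includes 0.

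The polymerases and the chain initiator differed instead with the replicate number. Ext1 was 4.02 times as high in the number 1 arrays as in numbers 2 and 3. Extl3 was 1.58 times, Ext2 1.55 times and Extl2 1.30 times as high, and these 4 rose by the test. The size of these rises depends on the scaling. When the arrays were quantile-normalized again, all 4 were smaller and still passed. Extl1 and Glce did not pass. In this comparison the 2 number 1 arrays, 1 PMA and 1 control, were set against the 4 arrays of numbers 2 and 3 in limma with PMA as a term. The labels do not say what a number stands for. Short sample names in the titles write the cell line with a hyphen in number 1. In numbers 2 and 3 they have no hyphen there and end in a letter, A or B. The comparison was set up with the distance of the number 1 arrays known from earlier results. Number 1 is 1 pair against 2 pairs, so the p-values compare these arrays only. Of all probe sets 41.7% were called, made up of 27.5% higher and 14.1% lower in number 1. Of the 6 genes 4 were called, all higher, with a median difference of 0.50 against 0.079 over all probe sets.

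Ext1 averaged 9.28 in the number 1 arrays and 7.28 ± 0.035 in those of numbers 2 and 3 (SD, n = 4). The difference was 2.01 log2 units (SE 0.066, limma adjusted p = 3.25e-09). It was 2.02 among the PMA arrays and 2.00 among the control arrays, so the PMA and the control arrays gave the same size within 1 SE. It was the 16th largest upward difference of the 1246 probe sets. A called rise of 1 log2 unit or more was met by 4.74% of probe sets and, of these 6 genes, by Ext1 alone.

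Ext2 averaged 10.03 in number 1 and 9.40 ± 0.061 in numbers 2 and 3, a difference of 0.63 (SE 0.071, limma adjusted p = 3.38e-05). It was 0.60 among PMA arrays and 0.66 among control arrays. EXT1 and EXT2 act as a complex, and the 95% interval of the Ext1 difference, from 1.86 to 2.15, did not overlap that of Ext2, from 0.47 to 0.79. The log2 ratio of Ext1 to Ext2 signal within an array was -0.70 and -0.78 in PMA 1 and control 1, and between -2.16 and -2.08 in the other 4 arrays. The ratio itself has no meaning as a level, since the 2 probe sets differ, and it was higher by 1.38 log2 units in number 1. The 2 probe sets may also differ in response, so unequal log2 differences need not be unequal changes in RNA. An exact permutation test of that difference over arrays gave p = 0.133. That is the smallest value that 2 against 4 arrays allow, so the permutation test could not pass.

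Extl3 averaged 9.27 against 8.61 ± 0.10, a difference of 0.66 (SE 0.080, limma adjusted p = 6.32e-05), with 0.57 among PMA and 0.75 among control arrays. Its interval, from 0.48 to 0.84, overlapped that of Ext2, from 0.47 to 0.79, so the 2 genes did not separate in size. Extl2 averaged 8.39 against 8.01 ± 0.043, a difference of 0.38 (SE 0.077, limma adjusted p = 0.00219). Both Extl2 values in number 1, 8.29 with PMA and 8.49 in control, lay above the highest of the other arrays, 8.07. The Extl2 difference was 0.26 among PMA arrays and 0.50 among control arrays. Without control array 1 the difference was 0.26 and did not pass (limma adjusted p = 0.0686), so that call rests on 1 array. After repeated quantile normalization of the 6 arrays the Extl2 difference was 0.21 and passed (limma adjusted p = 0.0336).

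Extl1 averaged 5.24 in number 1 and 5.15 ± 0.057 in the others, a difference of 0.094 (SE 0.071, limma adjusted p = 0.323). Glce averaged 8.66 and 8.69 ± 0.098, a difference of -0.026 (SE 0.079, limma adjusted p = 0.815), with an interval from -0.20 to 0.15. After repeated quantile normalization the Glce difference was -0.18 and did not pass (limma adjusted p = 0.0867). The interval as deposited does not reach the lower bound of Extl2 (0.21), Ext2 or Extl3. The highest Glce values were those of number 3, a pattern picked out after the values were seen. Number 3 was not tested against all the other arrays. The number 3 arrays read 8.81 with PMA and 8.72 in control, above the other 4 arrays, which ran from 8.60 to 8.67. Number 2 minus number 3 was -0.16 for Glce (SE 0.080, unadjusted p = 0.0824 and adjusted p = 0.953 by limma), which did not pass. For Ext1 the same difference was 0.017, and for the other 4 genes it ran from -0.059 to 0.095, with 0 of the 6 called. In that comparison 0% of all probe sets were called, with 61 at an unadjusted p under 0.05.

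**Figure D3:**
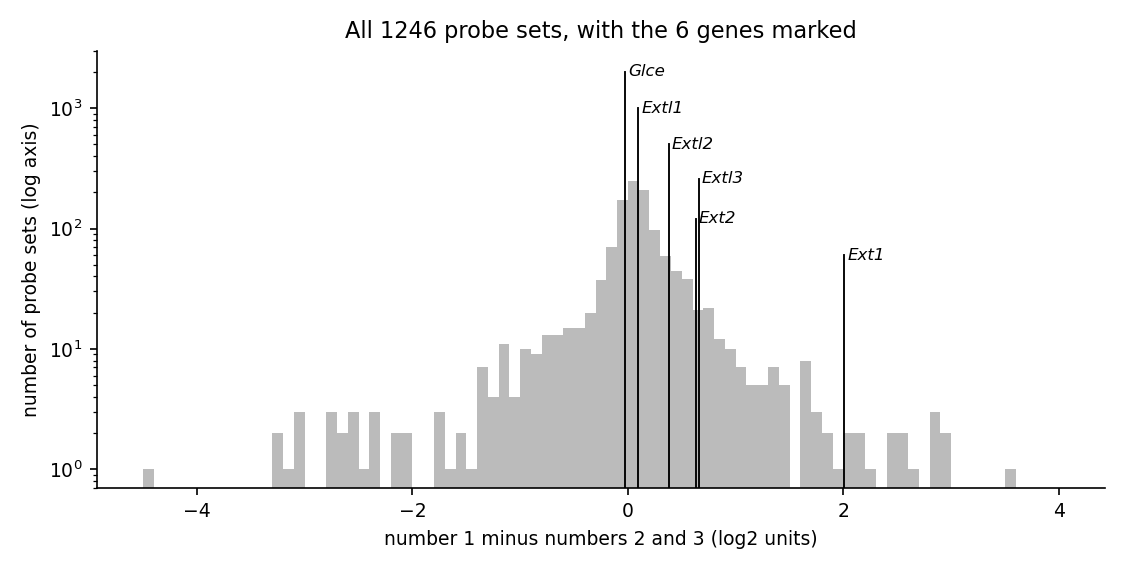
Histogram of the difference between number 1 and numbers 2 and 3 (horizontal axis, log2 units) over all 1246 probe sets (vertical axis, number of probe sets on a log scale), with a line at each of the 6 genes. Ext1 stands at 2.01 in the right tail, Ext2, Extl3 and Extl2 between 0.38 and 0.66, and Extl1 and Glce at 0.094 and -0.026 in the centre.

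Whether the PMA difference itself depended on the number was tested by the interaction of PMA with number 1 in limma. It was -0.24 for Extl2 (SE 0.13, adjusted p = 0.743) and -0.18 for Extl3 (SE 0.15, adjusted p = 0.830). The other 4 genes gave values between -0.077 and 0.090. Of the 6 genes 0 passed and 0 had an unadjusted p under 0.05, against 0.0803% of all probe sets called. Number 1 holds 1 PMA and 1 control array, so the test has no measure of spread within it. It cannot show that the PMA difference was the same in number 1 and the rest.

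Among the 908 named genes, those with the most similar pattern to each member over the 6 arrays were taken by Pearson's r. With the number 1 arrays far from the rest, a high r says mainly that a gene shares that distance, and it is given as a description. For Ext1 they were the galectin Lgals1, Bmp8a and Gdnf, each at 0.999, and Lgals1 read 12.87 and 12.85 in PMA 1 and control 1 and between 11.14 and 11.22 in the other arrays. Ext2 was most like Dpm2 and Slc35e4 (0.998 each) and Khk (0.997), and Extl3 most like Igf2bp1 (0.9997), Arsa and St3gal5 (0.998 each). For Extl2 they were Slc35b4 (0.993) and Il21 (0.990), and for Extl1 B3gnt4 (0.973) and Adgre1 (0.946). Il21 read between 2.89 and 3.22 and Adgre1 between 3.31 and 3.57. Both lay below the lower quartile of each array (4.32 to 4.43), so these 2 signals may be background. Gdnf read between 4.17 and 4.36 in the arrays of numbers 2 and 3, below the lower quartile of each, so its signal there may be background too. Between members, r was 0.990 for Ext1 with Ext2, 0.975 for Ext1 with Extl3 and 0.938 for Ext1 with Extl2. Glce stood apart, with -0.19 against Ext1, and was most like Ugdh (0.902), Mgat5b (0.870) and Wnt8a (0.868). Mgat5b and Wnt8a read between 4.32 and 4.55, near the lower quartile of the arrays. Ugdh, which makes UDP-glucuronic acid, read 10.47, 10.34 and 10.55 in PMA arrays and 10.42, 10.32 and 10.50 in control arrays, with array 3 highest in each group as for Glce.

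Of 68 other listed genes of heparan and chondroitin sulfate metabolism 56 were measured. PMA changed 0 of the 56 by limma, with or without the replicate block and with number 1 left out. An unadjusted p under 0.05 was met by 0 of them without the block and by 3 with it. Between number 1 and the other arrays 18 were higher, 9 were lower and 29 did not pass, against the 27.5% and 14.1% of all probe sets given above. The differences quoted next for these genes are in log2 units.

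The linker enzymes build the sugar stem on which both heparan and chondroitin sulfate start. Of their 5 measured genes 0 were higher and 1 lower in number 1. That was B4galt7, which adds the first galactose, at -0.26 (SE 0.078). B3gat3, which adds the closing glucuronic acid, stood at 0.16 and B3galt6, which adds the second galactose, at 0.15, and neither passed. The largest PMA differences of this list were 0.13 for B3galt6 and -0.088 for Xylt2, a xylosyltransferase that starts the linker.

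Of the 14 measured heparan sulfate sulfotransferases 5 were higher and 2 lower in number 1. Ndst1, which replaces acetyl by sulfate groups on the new chain, was higher at 0.98 (SE 0.080), and the 6-O-sulfotransferase Hs6st1 at 0.81 (SE 0.086). Hs3st1, a 3-O-sulfotransferase, was lower at -1.11 (SE 0.11). With PMA the largest differences were -0.16 for Hs3st1 and 0.12 for Hs3st3a1, another 3-O-sulfotransferase, and neither passed. Among the 4 enzymes that trim finished chains, heparanase Hpse, which cleaves them, was lower in number 1 at -0.88 (SE 0.078), and the endosulfatase Sulf2, which removes sulfate groups, was higher at 0.34 (SE 0.071). Sulf1, at 0.17, did not pass. The PMA differences were -0.087 for Sulf2 and -0.039 for Hpse.

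Of the 14 core proteins that carry heparan sulfate 7 were higher in number 1 and 0 lower. Tgfbr3, the TGF-β co-receptor betaglycan, differed by 2.98 (SE 0.087), Col18a1, a collagen of basement membranes, by 2.52 (SE 0.084), and Agrn, the basement membrane proteoglycan agrin, by 1.08 (SE 0.069). In this list the largest PMA differences were 0.19 for Tgfbr3 and -0.16 for Gpc2, a glypican, which did not pass. Tgfbr3 was 1 of the 3 genes with an unadjusted p under 0.05 in the blocked fit, at 0.0163.

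The enzymes of chondroitin and dermatan sulfate, whose chains grow on the same linker, split in direction. Of 6 measured, 3 were higher and 2 lower in number 1. Chsy3, a chondroitin synthase, was lower at -1.53 (SE 0.076), and Csgalnact1, which starts the chondroitin chain, at -0.98 (SE 0.098), while its relative Csgalnact2 was higher at 0.59 (SE 0.11). Their largest PMA differences, 0.21 for Csgalnact1 and 0.20 for Chsy3, did not pass, and these were the other 2 genes with an unadjusted p under 0.05 in the blocked fit (0.0437 and 0.0277).

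Of 8 genes that supply sugar and sulfate donors 0 were higher and 3 lower in number 1. These were Slc35a3, the UDP-N-acetylglucosamine transporter, at -1.23 (SE 0.12), Slc35d1, which carries UDP-glucuronic acid, at -1.14 (SE 0.086), and Uxs1, which makes UDP-xylose, at -0.43 (SE 0.070). PMA differences in this list were largest for Uxs1 at -0.12 and Slc35a3 at 0.11. Among 5 measured genes of the list for lysosomal breakdown 2 were higher, Sgsh, the sulfamidase, at 0.71 (SE 0.069) and Idua, the iduronidase, at 0.32 (SE 0.079), and 0 were lower. Glb1, a β-galactosidase, at 0.14, did not pass, and the PMA differences were largest for Gusb, the β-glucuronidase, at 0.052 and Sgsh at 0.049. The probe sets of Hs3st1, Hs3st3a1, Xylt2, Slc35a3, Uxs1 and Sgsh carry the suffix s.

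**Figure D4:**
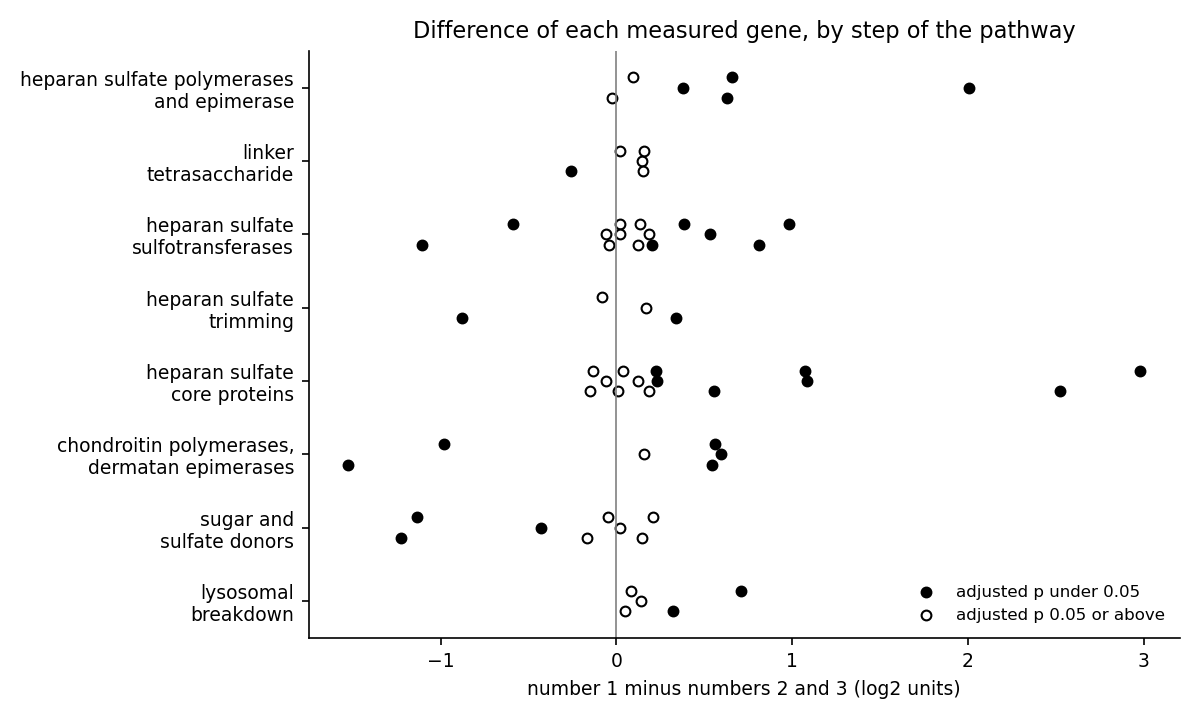
Difference between number 1 and numbers 2 and 3 (horizontal axis, log2 units) for each measured gene, by step of heparan and chondroitin sulfate metabolism, with filled points for genes called by limma at an adjusted p under 0.05. The called polymerase genes and core proteins lie to the right of 0, the called sugar and sulfate donors to the left, and the called sulfotransferases and chondroitin enzymes on both sides.

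Some markers of other cells differed with the number, as did 41.7% of all probe sets. Of 12 endothelial and fibroblast markers 7 were measured, and 4 were lower in number 1 (Dcn, Pecam1, Vcam1 and Sele), 1 was higher (Selp) and 2 did not pass. Their summed signal on the linear scale was 703 to 849 in the number 1 arrays and 1804 to 2992 in the others. This endothelial and fibroblast sum rests mainly on Dcn and Vcam1, the brightest of the 7. Dcn averaged 7.67 in number 1 and 9.97 in the others, and Vcam1 8.69 and 10.00. Of 16 leukocyte markers 8 were measured, and 2 were lower in number 1 (Ccr7 and Mrc1) and 0 higher, with a summed signal of 297 to 334 against 767 to 793. That sum moved with the 2 called genes, since Ccr7 averaged 5.07 in number 1 and 8.29 in the others and Mrc1 5.07 and 7.81, and the other 6 did not pass. Of 13 lung epithelial markers 3 were measured, and 2 were higher in number 1 (Sftpa1 and Muc1), with a summed signal of 110 to 118 against 89 to 100. Sftpa1, a surfactant protein of the alveolar epithelium, read between 3.29 and 3.89 and lay below the lower quartile of each array, so the label of the cells could be checked little here. The part of these markers in the differences between numbers was not tested. Array medians ran from 5.64 to 5.71. Upper quartiles were 7.97 in PMA 1 and 8.05 in control 1, and ran from 7.86 to 7.90 in the other arrays.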

How the data were processed

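RNA of MLE-15 cells was measured on 6 Affymetrix arrays, 3 PMA and 3 control. Total RNA was isolated in Trizol, and 0.5 µg of it went into biotinylated cRNA, per the labels' protocols. Log2 values were deposited, made by RMA per the submitters' processing notes. RMA corrects background, quantile-normalizes arrays and summarises probe sets. No source used here names the array, genome build or filters, so no gene coordinates are given. A shift of all transcripts one way would not be visible after RMA, and precision is limited by having 6 arrays.

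Probe sets were named through unversioned RefSeq accessions in the table of GRCm38.p6. Of the 1246 probe sets 284 stayed unnamed, and the probe set of highest mean stood for a gene. Tests used lmFit and eBayes of limma 3.58.1 (R 4.3.3), adjusted by Benjamini-Hochberg over all probe sets, and SE is limma's moderated standard error. The procedure was tested on simulated data. The 6 genes, the other lists and the comparison by number were chosen with earlier results of these data known. All 6 genes are named. In each other list the 2 genes of largest absolute PMA difference and the 3 of largest absolute difference by number are named, and for each of the 6 genes the 3 most similar by r, of which 2 are not reported here. Genes singled out beyond that were chosen after their values were seen.

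Replicate numbers 1 to 3 are shared by the groups. Deviations from group means correlated across probe sets at 0.956, 0.815 and 0.912 within numbers, over the bound of 0.1. On that result the numbers were treated as pairs in an alternative with the replicate block. Crossed matches also passed, at 0.838 for PMA 2 with control 3 and 0.886 for PMA 3 with control 2. Every match of number 1 with another number was negative, from -0.935 to -0.860. The distance of number 1 enters every deviation, so these values cannot decide whether numbers 2 and 3 are pairs. With number 1 set aside, the 2 minus 3 differences of both groups correlated at 0.041, under the bound. Pairs 2 and 3 are thus matched by label only. Alternatives were a term for number 1, number 1 left out, other scalings, a filter on dim probe sets, an intensity trend and each array left out.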

Additional observations from a re-analysis of the deposited data

How the results depend on the processing

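The PMA comparison called 0 of the 6 genes and 0 probe sets in every alternative run, including the fit with the replicate number as a block (0 and 0) and each array left out (0 to 0), and the block changed no call. With number 1 left out, the PMA difference turned to -0.0014 for Extl1 and 0.042 for Extl2. With each array left out in turn, which unbalances the numbers, the PMA difference ran from -0.69 to 0.64 for Ext1, -0.24 to 0.18 for Ext2, -0.018 to 0.069 for Extl1, -0.13 to 0.13 for Extl2, -0.15 to 0.29 for Extl3 and -0.027 to 0.068 for Glce. Between number 1 and the rest, 4 of the 6 genes were called under the other scalings, the filter, the trend and no PMA term, and 3 to 4 with each array left out, the lowest without control 1. With each array left out, the Ext1 difference ran from 1.99 to 2.02, that of Glce from -0.065 to 0.020 and all probe sets called from 403 to 543. With arrays centred on their medians Ext1 was at 1.97, Ext2 at 0.59, Extl3 at 0.62, Extl2 at 0.34 and Glce at -0.066. After repeated quantile normalization Ext1 was at 1.86, Ext2 at 0.49, Extl3 at 0.46, Extl2 at 0.21 and Glce at -0.18. The called probe sets split 343 higher to 176 lower as deposited and 278 to 232 after repeated quantile normalization. Setting number 2 against number 3 instead called 0 of the 6 genes and 0 probe sets, with Extl2 at -0.059. Counts over the other listed genes, chosen after seeing the data, ran from 23 to 30, against 27. No gene of the 6 had several probe sets, so averaging probe sets could not be run, and arrays of 1 group alone give no count. Signal over background is unknown.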
